A study of Homo sapiens with 8 samples.

Results

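The epithelial lineage factors are nuclear proteins that help to set and hold epithelial identity. The set was given as 10 gene symbols: TP63, SOX2, KLF4, KLF5, ELF3, EHF, GRHL2, GRHL3, OVOL1 and ESRP1. All 10 were among the 35113 genes to which quantified transcripts were matched, and all 10 were among the 15221 genes with enough reads to be tested. The RNA came from 2 head and neck squamous cell carcinoma lines, each as parental cells and as 1 cisplatin-resistant clone. HPV- resistant is the clone of the line UPCISCC89, which carries no human papillomavirus, and HPV- parental is that line itself. HPV+ resistant is the clone of the line UDSCC2, which carries human papillomavirus type 16, and HPV+ parental is that line itself. Each clone grew from a single cell after months of rising cisplatin and was then kept without drug, so each resistant group is 1 clone and not a sample of resistant cells. There were 2 libraries per group, 8 in all, and the sources used here leave unsaid if these were grown apart, so a p-value covers no more than the spread of the libraries, which may be technical.

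The factors divide the work of the epithelium. p63, the product of TP63, is the master regulator of the basal layer, and SOX2 is a partner of it that is often gained in squamous tumours. KLF5 belongs to dividing basal cells, while KLF4, GRHL3 and OVOL1 act as cells leave the cell cycle and differentiate. ELF3 and EHF are epithelial members of the ETS family, GRHL2 keeps the adhesion genes on, and ESRP1 is not a transcription factor but an RNA-binding protein that selects the epithelial form of many spliced messages.

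Where the TP63 messages start can be read from the sequence. The gene lies at chr3:189631389-189897276 on the plus strand of GRCh38 and has 2 promoters. Transcripts from the first promoter encode TA forms with an activation domain at the amino end, and transcripts from the internal promoter encode delta N forms without it. The first coding exons below, read from the GRCh38 genome, are among the exons that separate their reads, and the capitals mark the start codon. The delta N exon lies at chr3:189789801-189789842 and the TA exon at chr3:189631516-189631577.
TP63 delta N first coding exon: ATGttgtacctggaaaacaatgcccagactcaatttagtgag
TP63 TA first coding exon: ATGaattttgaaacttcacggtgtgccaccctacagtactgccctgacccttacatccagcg

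The 250 bases before the annotated start of the main delta N transcript (chr3:189789409-189789658, plus strand) are shown because nearly all TP63 reads begin downstream of them. The capitals mark the letters CAGGTG, which is CACCTG on the other strand, an E-box that ZEB and SNAI factors bind.
TP63 internal promoter: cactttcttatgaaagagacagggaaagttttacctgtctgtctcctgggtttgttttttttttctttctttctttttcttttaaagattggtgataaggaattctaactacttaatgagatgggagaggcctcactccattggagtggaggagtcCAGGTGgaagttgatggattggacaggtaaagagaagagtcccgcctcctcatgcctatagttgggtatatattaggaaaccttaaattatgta

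RefSeq promoters (GRCh38.p14, 250 bases before to 50 after the start) were at hand for 7 of the 10 genes. For TP63, KLF5 and EHF the window did not hold the annotated start of the transcript with most of the reads. The TP63 window lies at the first promoter, so the internal promoter printed above is not among the 7. Searched on both strands, CACCTG stood in 2 of the 7 and in 20.6% of all 27305 promoters. The motifs of GRHL (AACCNGTT), OVOL (CCGTTA), ETS (CCGGAAGT), KLF (GGGTGTGG) and p53 family (CATG, 6 bases of any kind, CATG) factors stood in none of the 7, and in 1.729%, 3.146%, 4.435%, 3.216% and 0.392% of all promoters. The matches say only which letters are in these windows. The promoters that hold CACCTG belong to ELF3 (chr1:202010337-202010636, plus strand) and GRHL3 (chr1:24319107-24319406, plus strand). The capitals mark CACCTG, which stands at -120 from the start in ELF3 and at -21 and 10 in GRHL3.
ELF3 promoter: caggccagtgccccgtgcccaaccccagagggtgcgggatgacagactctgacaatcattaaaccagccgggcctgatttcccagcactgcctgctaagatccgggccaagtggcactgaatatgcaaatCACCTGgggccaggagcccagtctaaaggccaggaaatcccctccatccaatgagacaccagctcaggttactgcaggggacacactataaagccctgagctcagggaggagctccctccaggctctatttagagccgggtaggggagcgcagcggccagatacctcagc
GRHL3 promoter: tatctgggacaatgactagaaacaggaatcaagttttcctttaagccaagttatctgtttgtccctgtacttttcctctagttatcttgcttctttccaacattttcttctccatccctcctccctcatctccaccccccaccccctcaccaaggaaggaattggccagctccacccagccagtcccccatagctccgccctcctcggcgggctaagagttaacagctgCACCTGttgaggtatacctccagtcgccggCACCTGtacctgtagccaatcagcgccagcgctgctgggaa

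Libraries held 20250246 to 27341284 read pairs, and levels are given as CPM, read pairs scaled to library size with edgeR's TMM factors. The cells carried squamous markers throughout: of the 14 genes of that list, keratins and desmosomal genes among them, none stood at 0 in any library. Their sum was unlike between groups, at 6002 and 7005 CPM in HPV- resistant, against 25890 and 23850 CPM in HPV- parental. It was 7146 and 5735 CPM in HPV+ resistant, against 5873 and 6032 CPM in HPV+ parental. A fibroblast list of 10 genes summed to 1462 to 3393 CPM in the 4 HPV+ libraries and to 4.7 to 12.34 CPM in the 4 HPV- libraries. In the HPV+ libraries that sum was mostly COL3A1, at a mean of 2219 CPM in HPV+ resistant and 2846 CPM in HPV+ parental, and LUM (78.42 and 265.6 CPM), DCN (31.83 and 109.4 CPM) and POSTN (13.95 and 2.486 CPM) were also present in HPV+ resistant and HPV+ parental. PDGFRB had no reads in the HPV+ libraries, and COL1A1 averaged 5.93 CPM in HPV+ resistant and 6.19 CPM in HPV+ parental. In the HPV- groups COL3A1, DCN and POSTN had no reads and LUM averaged at most 0.07479 CPM. Summed immune markers reached at most 21.15 CPM and endothelial markers at most 1.389 CPM. The part of the fibroblast genes in the differences between the lines was not tested. In a bulk library, fewer cells of a kind and less RNA per cell cannot be told apart.

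**Figure D1:**
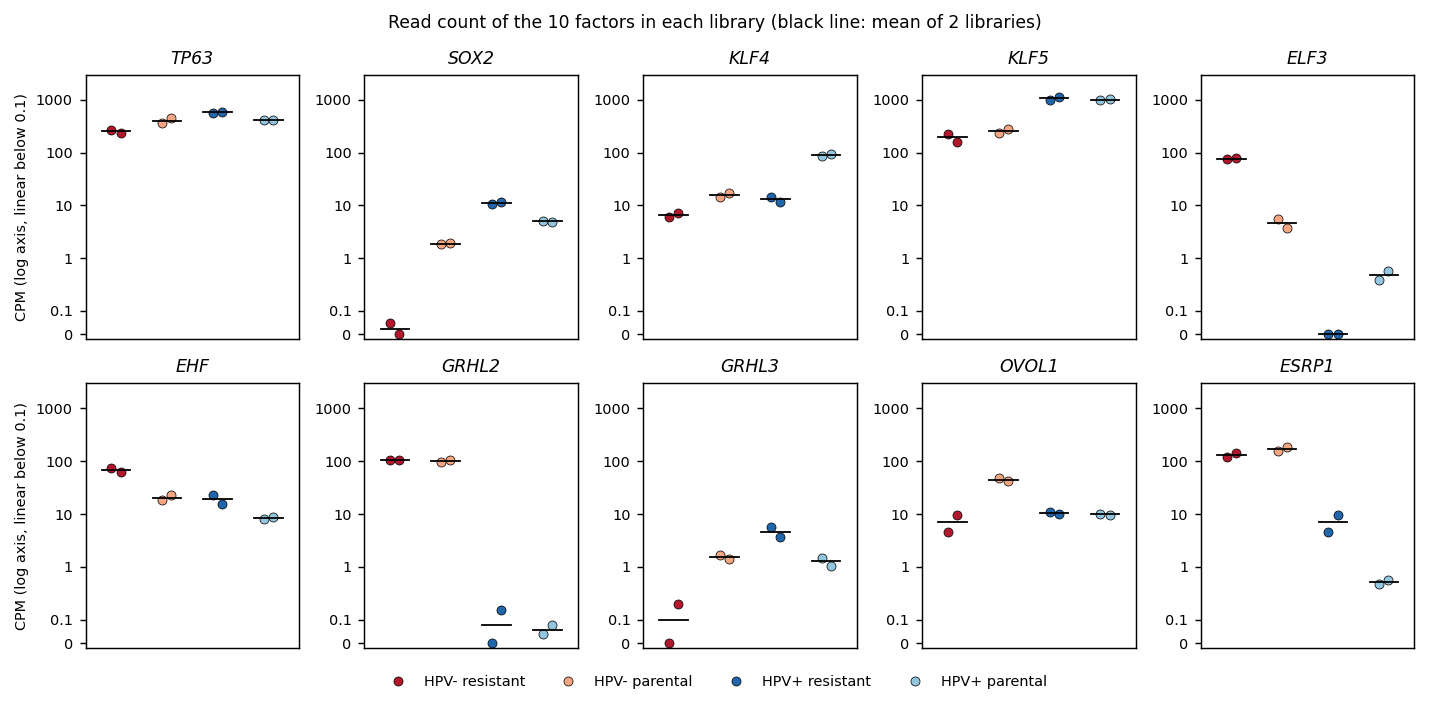
CPM of each factor in every library, on a log axis that is linear below 0.1, with 2 points per group and a black line at their mean. TP63 and KLF5 lie at 161.2 CPM or more in all 8 libraries, whereas GRHL2 lies at or below 0.155 CPM in the 4 HPV+ libraries and at 95.23 CPM or more in the 4 HPV- libraries.

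The first question was what the HPV- clone did to its lineage programme. It gained ELF3 and EHF, lost SOX2, GRHL3, OVOL1 and part of KLF4, and left TP63, KLF5, GRHL2 and ESRP1 short of the thresholds. A call here and below needed an adjusted p under 0.05 in edgeR's quasi-likelihood test over all genes and a log2 fold change beyond 1. By that rule 6 of the 10 factors changed, 2 higher and 4 lower, against 11.3% of all genes tested (6.06% higher, 5.22% lower).

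ELF3, which drives differentiation genes of simple and transitional epithelium, had the steepest gain. It stood at 74.58 and 77.23 CPM in HPV- resistant, against 5.395 and 3.697 CPM in HPV- parental. The log2 fold change was 4.07 ± 0.24 (SE, n = 2 each; edgeR adjusted p = 1.82e-05). EHF, its close relative, was at 73.83 and 62.32 CPM in HPV- resistant, against 18.59 and 22.59 CPM in HPV- parental. The groups did not overlap for either gene, and the log2 fold change of EHF was 1.72 ± 0.21 (edgeR adjusted p = 0.000483). In length-scaled units ELF3 averaged 56.21 TPM and EHF 15.2 TPM in HPV- resistant, against 2.865 and 4.071 TPM in HPV- parental. ELF3 was thus the third of the 10 factors by TPM in HPV- resistant and the eighth in HPV- parental.

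SOX2 was all but gone from the HPV- clone. It had 1 and 0 reads in HPV- resistant, against 34 and 43 reads in HPV- parental, so that it was 75.1 times lower with an exact 95% counting interval of 13.09 to 3006. The fitted log2 fold change was -5.95 ± 0.61 (edgeR adjusted p = 0.000209). SOX2 lies at chr3:181711925-181714436, inside the longer noncoding gene SOX2-OT, and its level in the parent was low already, at 1.82 and 1.94 CPM. Intervals of this kind cover counting error only.

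OVOL1, a zinc-finger repressor that restrains ZEB1 and the growth of basal cells, was at 4.633 and 9.423 CPM in HPV- resistant, against 47.54 and 42.42 CPM in HPV- parental. Its log2 fold change was -2.68 ± 0.28 (edgeR adjusted p = 0.00026). KLF4 stood at 5.993 and 7.08 CPM in HPV- resistant, against 14.21 and 17.4 CPM in HPV- parental, a log2 fold change of -1.27 ± 0.19 (edgeR adjusted p = 0.00114). This call was lost when only protein-coding transcripts were counted (-1.50, edgeR adjusted p = 0.0511), which leaves out the retained-intron transcripts KLF4-204 and KLF4-205, the first of which held 37.62% and 10.82% of KLF4 reads in HPV- resistant, against 19.42% and 0% in HPV- parental. GRHL3 had 0 and 4 reads in HPV- resistant, against 32 and 31 reads in HPV- parental, 15.4 times lower with a counting interval of 5.714 to 58.15 (edgeR adjusted p = 0.00574). For GRHL3, 3 of its 12 annotated transcripts were not analysed here, so its level is uncertain.

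Among the 4 factors that were not called, TP63 moved most. It was at 270.5 and 230.1 CPM in HPV- resistant, against 361.4 and 441.6 CPM in HPV- parental. The adjusted p of 0.00949 (edgeR) passed, but the log2 fold change of -0.68 ± 0.15 did not reach 1. KLF5 had 225.0 and 161.2 CPM in HPV- resistant and 236.1 and 280.3 CPM in HPV- parental (log2 fold change -0.42 ± 0.18, edgeR adjusted p = 0.115). GRHL2 was level at 106.3 and 105.6 CPM in HPV- resistant and 95.23 and 103.5 CPM in HPV- parental (log2 fold change 0.09 ± 0.19). ESRP1 had 122.4 and 144.5 CPM in HPV- resistant and 155.0 and 182.9 CPM in HPV- parental (log2 fold change -0.34 ± 0.25).

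The same question was put to the HPV+ clone. It gained ESRP1, EHF, SOX2 and GRHL3, lost KLF4 and the last reads of ELF3, and left TP63, KLF5, GRHL2 and OVOL1 short of the thresholds. Again 6 of the 10 factors changed, 4 higher and 2 lower, against 8.0% of all genes tested (3.4% higher, 4.6% lower). Without HPV+ resistant library 1 or HPV+ parental library 1 the count was 3, with 1 higher and 2 lower, and without either of the other HPV+ libraries it was 4. The median log2 fold change over the 10 was 0.44 in this clone and -0.55 in the HPV- clone, with medians over all genes of 0.0 and 0.04.

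ESRP1 was at 4.679 and 9.416 CPM in HPV+ resistant, against 0.4716 and 0.5664 CPM in HPV+ parental. The groups were well apart, with a log2 fold change of 3.75 ± 0.39 (edgeR adjusted p = 0.000417), yet even the higher library stayed far under the 122.4 to 182.9 CPM of the HPV- line. Its paralogue ESRP2, chosen for mention after its values were seen, averaged 33.28 ± 2.35 CPM in HPV+ resistant and 56.01 ± 4.77 CPM in HPV+ parental (SD, n = 2 each). It was not called, since the adjusted p of 0.00926 (edgeR) passed but the log2 fold change of -0.75 ± 0.15 did not reach 1 in size.

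KLF4 fell furthest in reads. It stood at 14.39 and 11.66 CPM in HPV+ resistant, against 85.17 and 92.35 CPM in HPV+ parental, a log2 fold change of -2.77 ± 0.18 (edgeR adjusted p = 3.41e-05). ELF3 had no read in either HPV+ resistant library, against 10 and 15 reads in HPV+ parental. Taking a floor of 3 counts over the group, it was at least 8.19-fold lower (edgeR adjusted p = 0.00218). The parental level of ELF3 was itself only 0.393 and 0.5664 CPM.

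The other gains in this clone were smaller and hung on the libraries used. SOX2 was at 10.67 and 11.66 CPM in HPV+ resistant, against 5.031 and 4.871 CPM in HPV+ parental (log2 fold change 1.17 ± 0.30, edgeR adjusted p = 0.0228). GRHL3 was at 5.67 and 3.681 CPM in HPV+ resistant, against 1.493 and 1.057 CPM in HPV+ parental (log2 fold change 1.87 ± 0.56, edgeR adjusted p = 0.0438). EHF was at 22.96 and 15.5 CPM in HPV+ resistant, against 8.018 and 8.76 CPM in HPV+ parental (log2 fold change 1.20 ± 0.21, edgeR adjusted p = 0.00493). The groups did not overlap for any of them. The calls of SOX2 and GRHL3 were lost when any 1 of the 4 HPV+ libraries was left out, with log2 fold changes of 1.10 to 1.23 and 1.52 to 2.15. The call of EHF was lost without HPV+ resistant library 1 (0.88) or HPV+ parental library 1 (1.12), and all 3 calls were lost with an offset for transcript length (1.24, 1.94 and 1.04 for SOX2, GRHL3 and EHF).

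The 4 factors that were not called in the HPV+ clone included the 2 most abundant, KLF5 and TP63. KLF5, the highest of the 10, had 1004 and 1111 CPM in HPV+ resistant and 978.4 and 1026 CPM in HPV+ parental (log2 fold change 0.08 ± 0.18), and the groups overlapped. TP63 was at 570.5 and 584.2 CPM in HPV+ resistant and 417.0 and 416.0 CPM in HPV+ parental, a log2 fold change of 0.47 ± 0.15 (edgeR adjusted p = 0.0574). OVOL1 was at 11.1 and 10.23 CPM in HPV+ resistant and 10.18 and 9.628 CPM in HPV+ parental (log2 fold change 0.11 ± 0.27). GRHL2 had 0 and 4 reads in HPV+ resistant and 1 and 2 reads in HPV+ parental, a ratio of 1.36 with a counting interval of 0.2296 to 9.263, and every one of these reads was assigned to a retained-intron transcript.

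**Figure D2:**
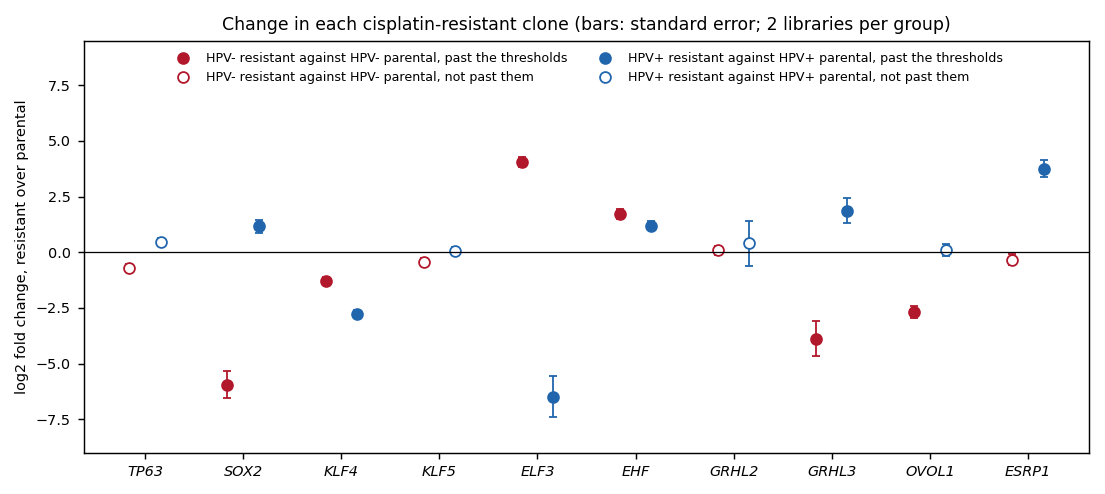
Log2 fold change of each factor in the HPV- clone (red) and in the HPV+ clone (blue) over its parental line, with standard errors; filled points passed both thresholds and open points did not. ELF3, SOX2 and GRHL3 have filled points on opposite sides of 0, and the ELF3 point of the HPV+ clone rests on a group with no reads.

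Setting the clones side by side, 5 factors were called in both, 1 in the HPV- clone alone (OVOL1), 1 in the HPV+ clone alone (ESRP1) and 3 in neither (TP63, KLF5 and GRHL2). Of the 5, EHF was higher and KLF4 lower in both clones, and ELF3, SOX2 and GRHL3 went in opposite directions. Of all genes, 11.3% were called in the HPV- clone and 8.0% in the HPV+ clone. The share of all genes called in both clones was not worked out, so these counts have no share to be set against. An interaction term tested the change in the HPV+ clone minus that in the HPV- clone. It was called for 7 factors, 5 positive and 2 negative, against 11.7% of all genes (5.17% positive, 6.57% negative). The largest in size were ELF3 (-10.55 ± 0.79 on the log2 scale, a fit that includes the group with no reads) and SOX2 (7.12 ± 0.69). OVOL1 (2.78 ± 0.39) and ESRP1 (4.09 ± 0.47) thus differed between the lines by the test itself. TP63 differed too, at 1.15 ± 0.22 (edgeR adjusted p = 0.00577), though neither clone alone passed both thresholds. KLF4 was lower by 1.49 ± 0.26 more in the HPV+ clone than in the HPV- clone on the log2 scale (edgeR adjusted p = 0.00357), a call that was lost with protein-coding transcripts only, at -1.84 (edgeR adjusted p = 0.0948). EHF did not differ by the test (-0.53 ± 0.30, edgeR adjusted p = 0.258).

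The starting points were unlike as well. HPV+ parental cells had far less GRHL2, ESRP1, ELF3 and OVOL1 and less EHF than HPV- parental cells, and more KLF4, KLF5 and SOX2. In all 8 of the 10 factors were called, 3 higher and 5 lower, against 37.0% of all genes (17.7% higher, 19.3% lower). The virus and the line cannot be told apart here, since each state is 1 line.

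GRHL2 set the lines apart most. It had 1 and 2 reads in HPV+ parental, against 1783 and 2295 reads in HPV- parental, which makes it 1726 times lower with a counting interval of 590.1 to 8372. ESRP1 was at 0.4716 and 0.5664 CPM in HPV+ parental, against 155.0 and 182.9 CPM in HPV- parental (log2 fold change -8.33 ± 0.38, edgeR adjusted p = 1.39e-07). ELF3 and OVOL1 were lower in HPV+ parental by log2 fold changes of -3.22 ± 0.29 and -2.18 ± 0.27. The lower EHF (-1.30 ± 0.22) was not held with an offset for transcript length, where the value was -0.07. Its length-scaled level was 4.648 and 4.189 TPM in HPV+ parental and 3.232 and 4.909 TPM in HPV- parental, which overlap.

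KLF4 was 85.17 and 92.35 CPM in HPV+ parental, against 14.21 and 17.4 CPM in HPV- parental (log2 fold change 2.49 ± 0.18, edgeR adjusted p = 1.4e-06). KLF5 had a log2 fold change of 1.96 ± 0.19 and SOX2 of 1.40 ± 0.32, both higher in HPV+ parental. TP63 was 417.0 and 416.0 CPM in HPV+ parental and 361.4 and 441.6 CPM in HPV- parental, and the libraries overlapped (0.05 ± 0.15). GRHL3 overlapped too (-0.28 ± 0.57). The fibroblast-list sums given above differ along the same contrast.

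**Figure D3:**
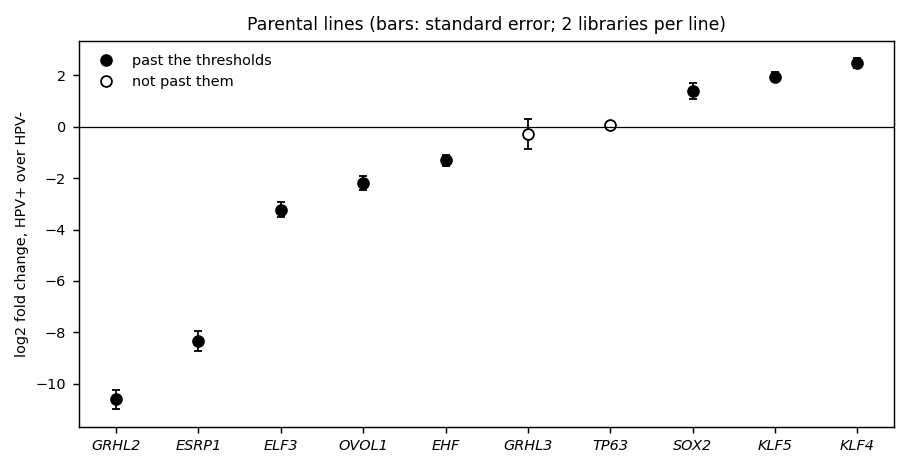
Log2 fold change of each factor, HPV+ parental over HPV- parental, with standard errors, ordered from the lowest to the highest; filled points passed both thresholds. GRHL2 and ESRP1 lie lowest, at -10.62 and -8.33, and KLF4 highest, at 2.49.

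By CPM over the 4 groups, TP63 ran from HPV+ resistant through HPV+ parental and HPV- parental, whose libraries overlapped, down to HPV- resistant. KLF5 had the same order, with the HPV+ groups overlapping. KLF4 was highest in HPV+ parental, and its next levels, in HPV- parental and HPV+ resistant, overlapped. EHF was highest in HPV- resistant, and its next levels, in HPV- parental and HPV+ resistant, overlapped. In length-scaled units these 2 groups of EHF did not overlap. It stood at 12.69 and 6.414 TPM in HPV+ resistant, against 3.232 and 4.909 TPM in HPV- parental. In TPM, which allows genes to be set against each other, KLF5 and TP63 were the highest of the 10 in every group, from 70.79 and 69.93 TPM in HPV- resistant to 410.5 and 177.1 TPM in HPV+ resistant.

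TP63 was then taken by transcript. Transcripts with the delta N start held 99.8% and 100% of its reads in HPV- resistant, against 99.9% and 99.8% in HPV- parental. In the HPV+ line they held 98.8% and 97.2% in HPV+ resistant, against 98.7% and 98.9% in HPV+ parental. In every library the delta N exon printed above, and not the TA exon, therefore opened the coding part of nearly all TP63 messages. The transcript TP63-203 alone, which runs to the alpha end of the protein, held 90.5% to 95.1% of the reads, and all transcripts with the alpha stop codon held 96.8% to 98.9%. TP63-209, which ends at the gamma stop codon, held 0.48% and 0.755% in HPV- resistant, against 1.521% and 1.335% in HPV- parental. Reads of these transcripts overlap and were divided by an estimate, so small shares are the least sure.

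**Figure D4:**
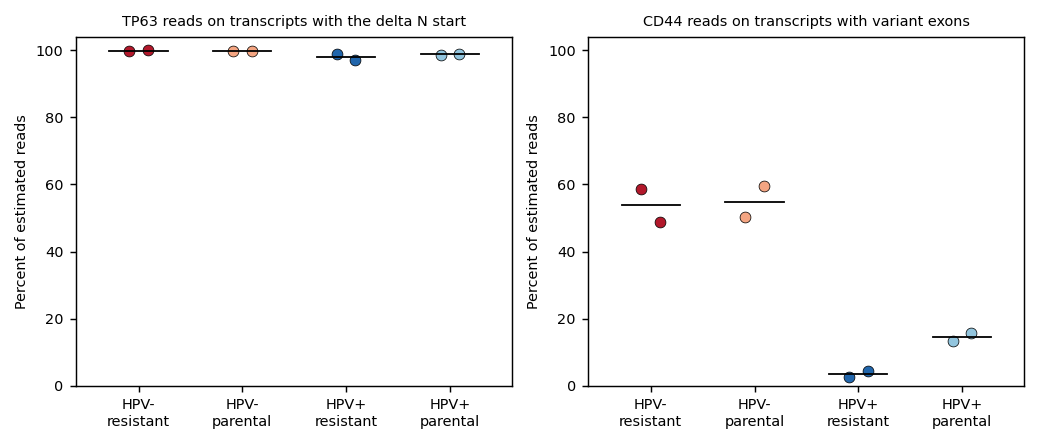
Share of estimated reads, in percent, on TP63 transcripts with the delta N start (left) and on CD44 transcripts with variant exons (right), 2 libraries per group with their mean as a line. The delta N share is above 97% in all 8 libraries, and the CD44 share is 2.58% to 15.69% in the HPV+ groups and 48.89% to 59.62% in the HPV- groups.

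Most of the other factors also had 1 main transcript. KLF5-201 held 92.07% to 99.95% of KLF5 reads over the groups, OVOL1-201 97.65% to 99.64% and GRHL2-206 98.74% in HPV- resistant and 97.09% in HPV- parental. EHF-201 held 97.42% of EHF reads in HPV- resistant and 98.82% in HPV- parental, but 85.15% in HPV+ resistant and 79.46% in HPV+ parental, where EHF-208 held 10.61%. ELF3 was split, with 47.49% and 45.78% of its reads on ELF3-202 in HPV- resistant, against 48.55% and 33.47% in HPV- parental. ELF3-203 held 33.4% and 34.97% in HPV- resistant, against 18.98% and 42.69% in HPV- parental. ESRP1-203 held 52.93% and 41.44% of ESRP1 reads in HPV- resistant, against 40.33% and 41.33% in HPV- parental. In the HPV+ line the estimate was unsteady, at 85.23% and 38.77% in HPV+ resistant, against 0% and 100% of the few reads in HPV+ parental.

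Of 78 transcripts of the 10 genes in the files, 37 could be tested singly. In the HPV- clone 1 was called higher and 0 lower, against 0.611% of all transcripts (0.269% higher, 0.343% lower), and without adjustment p was under 0.05 for 4 higher and 7 lower ones. The call was EHF-201 (log2 fold change 1.78 ± 0.23, edgeR adjusted p = 0.0464), and DESeq2 called 10. The percentages of all transcripts in this paragraph are edgeR's, so the DESeq2 counts cannot be set against them. In the HPV+ clone edgeR called 0, against 0.573% of all transcripts (0.206% higher, 0.368% lower), with an unadjusted p under 0.05 for 5 that were higher and 5 that were lower, and DESeq2 called 8. KLF5-205, which starts upstream of the main KLF5 transcript, had 3338.7 and 942.3 estimated reads in HPV+ resistant, against 18.6 and 5.6 in HPV+ parental, and did not pass (edgeR adjusted p = 0.269). The interaction called 0 transcripts, against 0.396% of all (0.19% positive, 0.206% negative), with an unadjusted p under 0.05 for 7 positive and 3 negative ones. Between the parental lines 3 were called higher and 8 lower, against 8.57% of all transcripts (3.87% higher, 4.7% lower), the higher ones being KLF5-201, KLF4-201 and KLF4-205.

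ESRP1 is known for keeping the variant exons of CD44, a hyaluronan receptor, and the IIIb exon of FGFR2, a fibroblast growth factor receptor, in epithelial messages. The last pair of CD44 variant exons, read from GRCh38 on the plus strand at chr11:35209965-35210054 and chr11:35211246-35211449, show what is kept or skipped.
CD44 variant exon 9: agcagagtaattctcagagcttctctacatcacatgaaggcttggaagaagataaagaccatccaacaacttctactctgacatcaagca
CD44 variant exon 10: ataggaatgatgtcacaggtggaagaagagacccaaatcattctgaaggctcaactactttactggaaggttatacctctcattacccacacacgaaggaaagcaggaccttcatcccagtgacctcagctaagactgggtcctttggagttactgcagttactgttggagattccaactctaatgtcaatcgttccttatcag

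Of the reads on CD44 transcripts that span this part, those with variant exons were 58.66% and 48.89% in HPV- resistant and 50.19% and 59.62% in HPV- parental, which overlap. They were 2.58% and 4.23% in HPV+ resistant, against 13.18% and 15.69% in HPV+ parental. The share was thus lower in HPV+ resistant, while ESRP1 itself was higher there. Its paralogue ESRP2 was lower there, at a mean of 33.28 CPM against 56.01 CPM in HPV+ parental. The part of either gene in the share was not tested. By summed TPM the shares in the HPV+ line were 5.4% and 16% in HPV+ resistant and 27.34% and 29.07% in HPV+ parental, in the same order. For FGFR2 the IIIb share was 75.79% and 89.23% in HPV- resistant, against 64.03% and 61.89% in HPV- parental, with 114.08 to 252.96 IIIb reads per library, and the HPV+ libraries had at most 15.29. No test was run on these shares.

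The wider programme was read through lists of genes. Of 43 known p63 targets, the HPV- clone had 2 higher and 18 lower (all genes 6.06% and 5.22%), with a median log2 fold change of -0.85 against 0.04 for all genes. KRT14, a basal keratin, was the most certain of them (-4.54 ± 0.23), with PKP1 of the desmosome (-2.13 ± 0.16) and GPX2, a glutathione peroxidase (-1.95 ± 0.17). IGFBP3 (1.68 ± 0.29) and FAT2 (1.04 ± 0.21) were the 2 that rose. The list holds SOX2, KLF4, GRHL3 and OVOL1 themselves, and all of these are counted among the 18 lower. In the HPV+ clone 7 targets were higher and 8 lower (3.4% and 4.6% of all genes), with a median of 0.02 against 0.0. SOX2 and GRHL3 are counted among the 7, and KLF4 among the 8. SNAI2 rose by 1.20 ± 0.15, and BMP7 (-1.74 ± 0.13) and FGFR3 (-1.80 ± 0.20) fell.

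Late differentiation genes, which lie downstream of KLF4, GRHL3, OVOL1 and ZNF750, were lower for 12 of 24 in the HPV- clone, with 2 others higher (all genes 5.22% and 6.06%), with a median of -1.55. SPRR1B, a cornified envelope precursor, averaged 0.0252 CPM in HPV- resistant against 117.6 CPM in HPV- parental. KRT1 (0.0504 against 98.53 CPM) and ABCA12, a lipid transporter (-5.00 ± 0.38), were next. CNFN (1.07 ± 0.30) and ALOX12B (1.99 ± 0.56) were higher. In the HPV+ clone 4 were higher and 4 lower (all genes 3.4% and 4.6%), with a median of 0.35, where SPRR1B (2.12 ± 0.34), DSG1 (2.28 ± 0.39) and SLPI (2.23 ± 0.41) rose, and KRT13 (-4.95 ± 0.26), KRT10 (-2.52 ± 0.18) and CNFN (-1.83 ± 0.32) fell.

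Of 38 adhesion and polarity targets of the GRHL, OVOL and KLF factors, the HPV- clone had 6 higher and 2 lower (all genes 6.06% and 5.22%, median 0.30), with the protease PRSS8 (2.04 ± 0.23) and the sodium channel subunit SCNN1A (5.20 ± 0.61) higher, and LAD1 (-1.39 ± 0.22) and the desmoplakin gene DSP (-1.25 ± 0.22) lower. In the HPV+ clone 4 were higher and 1 lower (all genes 3.4% and 4.6%), with a median of 0.32. CDH1, which encodes E-cadherin, averaged 188.1 ± 2.4 CPM in HPV+ resistant and 41.63 ± 3.23 CPM in HPV+ parental (log2 fold change 2.18 ± 0.17). AP1M2, an adaptor of epithelial sorting, rose by 4.003 ± 0.239 and OCLN, encoding occludin, by 1.05 ± 0.24, and CDH3 fell by 1.82 ± 0.17.

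Of 20 mesenchymal genes tested, the HPV+ clone had 3 higher and 5 lower (all genes 3.4% and 4.6%), with a median of -0.16. VIM, encoding vimentin, averaged 53.85 ± 19.12 CPM in HPV+ resistant and 292.9 ± 38.8 CPM in HPV+ parental (-2.44 ± 0.25), and S100A4 (-2.39 ± 0.25) and TGFBI (-2.26 ± 0.43) also fell. TGFBI was low in both groups, at a mean of 0.3514 CPM in HPV+ resistant and 1.712 CPM in HPV+ parental. SNAI2 (1.20 ± 0.15), TGFB2 (1.98 ± 0.24) and TAGLN (1.72 ± 0.34) rose. ZEB1, a repressor of epithelial genes that OVOL1 and GRHL2 are known to hold down, chosen for mention after its values were seen, was among those lower, at a mean of 3.205 CPM in HPV+ resistant and 10.76 CPM in HPV+ parental. Neither OVOL1 nor GRHL2 was called in that clone. In the HPV- clone, where OVOL1 was lower, ZEB1 was near no reads and was not called. It averaged 0.1257 CPM in HPV- resistant and 0.04508 CPM in HPV- parental. The part of OVOL1 or GRHL2 in the level of ZEB1 was not tested. Of the 20 mesenchymal genes, 5 were higher and 1 lower in the HPV- clone (all genes 6.06% and 5.22%, median 0.23), with CDH2 (2.96 ± 0.27), ACTA2 (3.11 ± 0.46) and ZEB2 (2.40 ± 0.52) among the higher ones.

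Of 45 other epithelial factors tested, the HPV- clone had 4 higher and 8 lower (all genes 6.06% and 5.22%). The HPV+ clone had 7 higher and 8 lower (all genes 3.4% and 4.6%). ZNF750, a partner of KLF4 in late differentiation, fell in the HPV- clone (-4.62 ± 0.52) and rose in the HPV+ clone (3.17 ± 0.48). TP73, a relative of TP63, rose in the HPV- clone (2.32 ± 0.15) and fell in the HPV+ clone (-1.28 ± 0.14), as did FOXA1 (2.40 ± 0.35 and -1.65 ± 0.25). GATA6 rose in both (1.43 ± 0.25 and 1.33 ± 0.22). KLF10 (-1.52 ± 0.17) and SOX15 (-1.24 ± 0.15) fell in the HPV- clone, and RUNX1 (1.46 ± 0.19) rose and PITX1 (-1.22 ± 0.19) fell in the HPV+ clone. The squamous markers share genes with the p63 targets, KRT14 and PKP1 among them, so the counts of these lists overlap. In the HPV- clone 9 of the 14 squamous markers were called, 2 of them higher and 7 lower (all genes 6.06% and 5.22%). KRT15 (1.64) and CDH1 (1.01) were the higher ones, and KRT6A (-5.84) was among the lower ones. Of these markers the HPV+ clone had 3 higher and 3 lower (all genes 3.4% and 4.6%). KRT17 (3.06) and KRT6A (2.83) were among the higher ones, and KRT15 (-2.69), KRT14 (-1.25) and S100A2 (-1.43) were lower. Between the parental lines 16 of 38 adhesion genes were lower and 4 higher in HPV+ parental, and 12 of 20 mesenchymal genes were higher and 5 lower, against 17.7% higher and 19.3% lower of all genes. Of the markers of other cell types, CD14 was called higher in the HPV- clone (1.53 ± 0.38) and the HPV+ clone (2.40 ± 0.72), and POSTN was higher (2.49 ± 0.35) and LUM (-1.76 ± 0.23) and DCN (-1.78 ± 0.38) lower in the HPV+ clone.

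**Figure D5:**
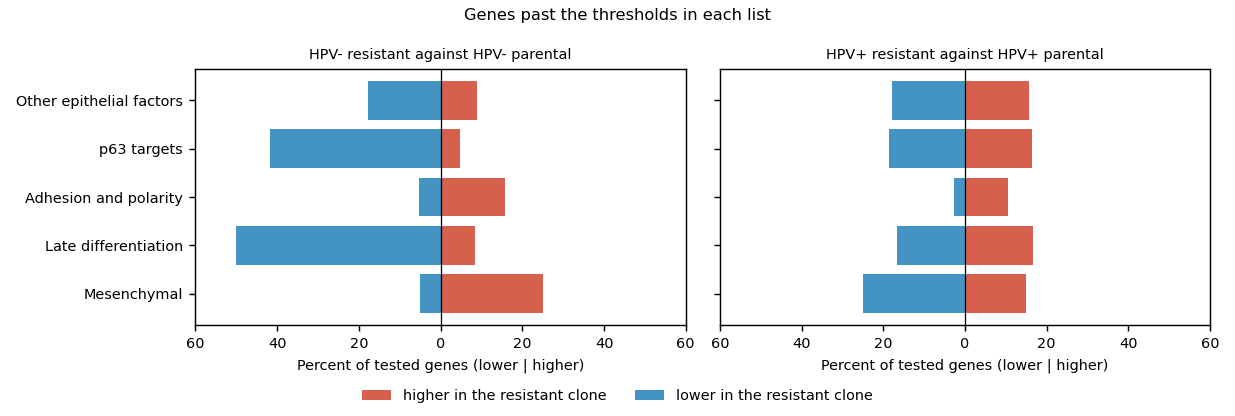
Share of the tested genes of each list, in percent, that passed the thresholds in the HPV- clone (left panel) and in the HPV+ clone (right panel); bars to the right are genes higher in the resistant clone and bars to the left genes that were lower. Late differentiation genes (12 of 24 lower) and p63 targets (18 of 43 lower) have the longest left bars, both in the HPV- clone.

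Neighbouring genes were looked at within 5 Mb of each factor. On chromosome 8, where GRHL2 (chr8:101492439-101669726) and ESRP1 (chr8:94641074-94707466) lie, neighbours were lower in the HPV- clone, with 12 of 38 and 11 of 44 called lower by edgeR, no neighbour called higher (all genes 5.22% lower, 6.06% higher) and medians of -0.66 and -0.63, in windows that share genes. GRHL2 and ESRP1, at 0.09 and -0.34, were above those medians. The neighbours of SOX2 had a median of -0.41 in the HPV- clone, with 8 of 64 lower beside 5.22% of all genes, against -5.95 for SOX2 itself. The 233 neighbours of OVOL1 had a median of -0.90 between the parental lines, with 105 lower and 16 higher (all genes 19.3% and 17.7%), beside -2.18 for OVOL1. For ELF3, KLF4, KLF5, EHF and GRHL3 the neighbours' medians in the clones lay between -0.09 and 0.23. For TP63 the medians were -0.229 in the HPV- clone and -0.225 in the HPV+ clone, and for OVOL1 -0.153 and -0.359. In the HPV+ clone 27 of the 233 neighbours of OVOL1 were lower and 2 higher (all genes 4.6% and 3.4%). The medians in that clone were -0.252 for SOX2, 0.104 for GRHL2 and 0.018 for ESRP1.

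Likeness of pattern was measured by Pearson's r of log2 CPM over the 8 libraries, among 10773 protein-coding genes. The libraries form 4 pairs, so r follows the group means. The closest genes were AGTPBP1 for TP63 (0.996), CLCA2 for SOX2 (0.992), TACC2 for KLF4 (0.994), PDIK1L for KLF5 (0.999), PRDM11 for ELF3 (0.997), LAMB1 for EHF (0.994), LCP1 for GRHL2 (0.999), GLRX2 for GRHL3 (0.992), PNO1 for OVOL1 (0.997) and PRAG1 for ESRP1 (0.997). LCP1, which encodes L-plastin of the actin skeleton, averaged 0.1361 CPM in HPV+ resistant and 0.07629 CPM in HPV+ parental, against 668.9 CPM in HPV- resistant and 591.9 CPM in HPV- parental, a split like that of GRHL2. The next in likeness were TEX10, SNRPD1, ARHGEF39, ZNF131, SOX7, TRAM1, HTATIP2, MRPL40, NUTF2 and NKAP, in the same order of factors, with r from 0.99 to 0.9985.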

How the data were processed

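PolyA-selected RNA was sequenced as paired-end reads. Transcripts were quantified by the authors in Salmon on GRCh38, with the version and gene models not given in the sources used here. Each deposited file holds, per transcript, an estimated count of read pairs, a TPM value (length-scaled relative abundance) and an effective length, all as the authors' quantification gave them. From these, estimated counts were summed per gene through GENCODE 44 (172550 of 187432 transcripts matched, 92.1%, leaving out 4.325% to 5.126% of read pairs) and rounded to whole numbers. Chi-square values per gene between the libraries of a group, 16.76 to 59.85, exceeded sampling noise, so no library was taken as a repeat deposit of another. This does not show that they came from separate cultures.

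The 10 factors and the gene lists were chosen with earlier results of these data known. edgeR 4.0.16 (R 4.3.3) was fitted over all 8 libraries with TMM factors, its default low-count filter and robust quasi-likelihood dispersion, followed by Benjamini-Hochberg adjustment over the 15221 genes. Standard errors come from the F statistic. A floor of 3 counts over a group was used where it had no reads. Log2 CPM values used a prior count of 2. All 10 factors were named. From each list, up to 3 called genes per direction with the smallest p were named for each clone, and the likest genes needed a mean of 5 CPM. Of the list symbols, 4 were not analysed here, and some genes that this rule names are not reported here. Sequences come from GRCh38 and RefSeq tables.

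Alternatives were other scaling factors (RLE, upper quartile), DESeq2 1.42.0, no filter or at least 5 CPM in 2 libraries, only the 4 libraries of a comparison, an offset for transcript length, protein-coding transcripts only, no minimum fold change, a replicate block, each library left out, and shares of summed TPM. The procedure was tested on simulated data.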

Additional observations from a re-analysis of the deposited data

Results flagged for a closer look

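For 7 of the 10 factors the change with resistance differed between the lines in the interaction test (edgeR, change in the HPV+ clone minus change in the HPV- clone, log2). Of all genes, 11.7% were called in this test (5.17% positive, 6.57% negative). Among the 7 factors the values were positive for TP63 (1.15), SOX2 (7.12), GRHL3 (5.75), OVOL1 (2.78) and ESRP1 (4.09). They were negative for KLF4 (-1.49) and ELF3 (-10.55). SOX2, GRHL3 and ELF3 each rest on a group with 0 to 4 reads in all, so that the size of those 3 values depends on the fit. What sets them apart between the lines was not tested.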

How the results depend on the processing

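The count of called factors stayed within 1.5 times of its value under all alternatives in the HPV- clone (6, range 5 to 7), between the parental lines (8, range 7 to 8) and for the difference between the lines (7, range 6 to 7). In the HPV+ clone the 6 became 3 with the transcript length offset and, with single libraries left out, ranged from 3 to 6. Leaving out 1 library leaves that group with 1, which is assumed to vary like the others. Replicate numbers were not taken as pairs, since no source ties them and each comparison has only 2: deviations of same-numbered libraries correlated at -0.29 (HPV- line), -0.04 (HPV+ line) and 0.41 (parental lines). With a replicate block the counts were 6, 5, 7 and 8 for the HPV- clone, the HPV+ clone, their difference and the parental lines, and GRHL3 lost its call in the HPV+ clone, as it did with protein-coding transcripts only, with a log2 fold change of 1.52 to 2.15 over all alternatives. With the numbers of the HPV- resistant libraries crossed, an alternative chosen after seeing the data, they were 6, 6, 7 and 8. Single transcripts depended most on the tool. No share over all transcripts is given for the alternatives, so their counts cannot be set against the shares of the main fit. In the HPV- clone the 1 call became 10 with DESeq2, 4 with the 5 CPM filter, 4 with no filter, and 0 with RLE factors, with the 4 libraries of the comparison, with either replicate block and with every single library left out (range 0 to 0). In the HPV+ clone the 0 became 8 with DESeq2, 3 with the 5 CPM filter, 1 with no filter and 0 to 1 with a library left out. Shares of summed TPM moved the delta N share to 99.7% (HPV- parental), 96.75% (HPV+ resistant) and 97.46% (HPV+ parental), the FGFR2 IIIb share to 70.64% (HPV- parental) and the CD44 variant share to 65.61% (HPV- resistant), 67.89% (HPV- parental), 10.7% (HPV+ resistant) and 28.2% (HPV+ parental). Signs turned only for values near 0 or near no reads: TP63 between the parental lines (-0.10 to 0.16 with a library left out, the lowest without HPV- parental replicate 1), GRHL2 in the HPV+ clone (-3.52 to 1.34 with a library left out) and the GRHL2 difference between the lines (-0.11 with protein-coding transcripts only, and -3.61 to 1.25 with a library left out, -0.006 in the fit that omits library 1 of HPV+ parental). Where no cause is given, the cause was not tested.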
